A study of Rattus norvegicus with 12 samples.

Results

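The most abundant transcripts of cultured rat aortic smooth muscle cells were taken as those that averaged 400 FPKM or more over 12 libraries and had 100 FPKM or more in each of them. FPKM gives fragments relative to the length of the transcript and to all fragments of a library, so levels of different transcripts can be compared. This rule found 167 of the 29330 transcripts listed, or 0.569% of them, and these 167 are called members below. They were chosen by their FPKM in these 12 libraries, so their abundance is a description and not a finding. The files give Ensembl transcript identifiers with no gene names. Of the 167 identifiers, 0 matched the gene table used here, which holds 47357 genes, so members are named by identifier and by their rank in mean FPKM. For the same reason the label smooth muscle could not be checked against marker genes, no sequence is printed, and the position, exons and gene of a member are not reported here.

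Primary vascular smooth muscle cells of passage 4 were grown from the medial layer of the thoracic aorta of male Sprague-Dawley rats (the labels write Sprague-Dailey). The age of the rats is not given in the sources used here. All 4 groups received an adenovirus overnight and were then kept in 0.2% serum for 24 to 32 h. Ad-GFP cells received a virus carrying green fluorescent protein, and Ad-Cklf1 cells a virus that overexpresses Cklf1, a chemokine-like factor. The scramble group received a virus with a scrambled short hairpin RNA and the knockdown group a virus whose hairpin targets Cklf1. These last groups also received tumour necrosis factor (TNF), 25 µg/L during 24 h, and no group tests TNF with the same virus insert. Each group held 3 libraries, and whether the 3 are separate cultures or animals is not stated, so p-values speak only of the scatter among these libraries, which may be technical.

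As background, differentiated smooth muscle cells are known for contractile proteins such as smooth muscle actin and transgelin, and in culture they also make much collagen, fibronectin and other matrix proteins. Messenger RNAs for ribosomal proteins, elongation factors, cytoskeletal proteins and glycolytic enzymes are among the most abundant in most cultured cells. TNF activates NF-kappaB signalling in vascular cells and can lower contractile gene expression. Which members encode such proteins is not known from the files. A transcript estimate also divides the reads of a gene among its isoforms, so members from 1 gene are not independent.

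The libraries listed between 8164 and 9735 transcripts at 0, and between 13391 and 13634 above 1 FPKM. The number of reads is not recorded in FPKM values, so depth is unknown here and no counting intervals are given. The median coefficient of variation (SD as a percent of the mean) between replicates over the 13698 tested transcripts was 7.07% in Ad-GFP, 6.24% in Ad-Cklf1, 7.25% with the scrambled hairpin and 8.62% with knockdown. The level of the targeted gene was not checked, because the files do not name it.

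The members spanned a wide range of levels. Their mean over the 12 libraries ran from 404 to 6619 FPKM, with a median of 756 FPKM and quartiles of 530 and 1219 FPKM. A mean of at least 2000 FPKM was reached by 19 members and one of at least 1000 FPKM by 51, while 53 lay under 600 FPKM. The 37 highest members held 50% of the members' summed FPKM. ENSRNOT00000050156 had the highest mean of the members, and it ranked first among them in all 12 libraries. It was at 6225, 7173 and 6873 FPKM in Ad-GFP replicates 1 to 3, in the order used throughout, and at 6737, 6838 and 6792 FPKM in Ad-Cklf1. Its values were 5711, 6020 and 6201 FPKM in scramble and 6319, 6971 and 7565 FPKM in knockdown. All scramble libraries lay below those of every other group, yet no comparison passed the test (limma adjusted p = 0.0508 for knockdown against scramble and 0.0622 for scramble against Ad-GFP).

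Of the next 4 members, ENSRNOT00000004956 and ENSRNOT00000042459 changed in at least 1 comparison. ENSRNOT00000005311, ranked 2, had 4768 ± 440 FPKM in Ad-GFP, 5198 ± 18.0 in Ad-Cklf1, 5427 ± 211 with the scrambled hairpin and 5181 ± 422 with knockdown (SD, n = 3 each), and no comparison between groups passed the test. ENSRNOT00000004956, ranked 3, had 4450 ± 146, 4724 ± 76.8, 4970 ± 75.2 and 5162 ± 319 FPKM in the same order (SD, n = 3 each). It was higher in scramble than in Ad-GFP by 0.16 log2 units (limma adjusted p = 0.022, SE 0.052), a call lost on leaving out Ad-GFP replicate 2, Ad-GFP replicate 3 or scramble replicate 1 (limma adjusted p = 0.0632, 0.0737 and 0.0648), and the value turned to -0.051 when libraries were scaled to the sum of non-members. ENSRNOT00000042459, ranked 4, separated all 4 groups without overlap. It was at 5647, 5244 and 5341 FPKM in Ad-GFP and at 6252, 6168 and 6131 FPKM in Ad-Cklf1. In scramble it was at 3304, 3153 and 3228 FPKM, and in knockdown at 4137, 4286 and 4123 FPKM. ENSRNOT00000032780, ranked 5, was marked by 1 library: knockdown replicate 3 had 2448 FPKM against 4853 and 4403 FPKM in the other knockdown libraries, and no comparison of it passed the test.

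**Figure D1:**
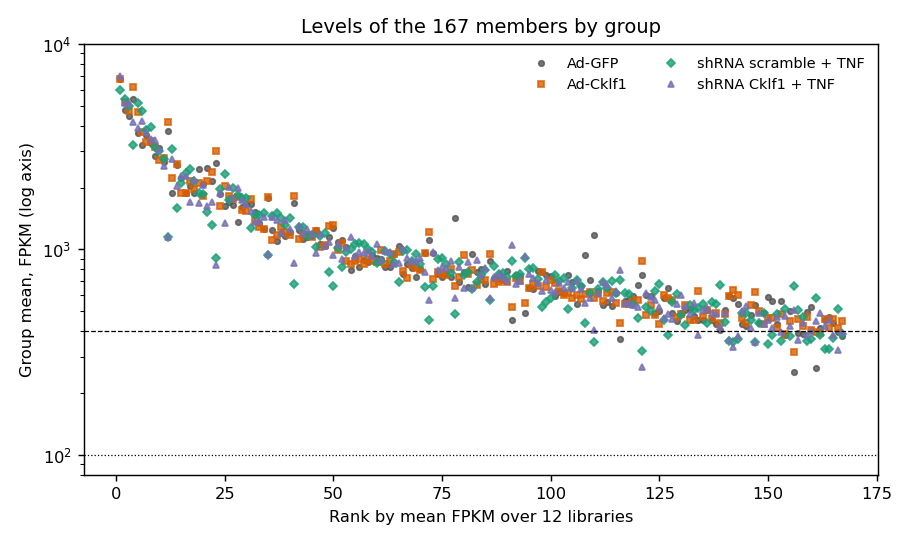
Mean FPKM of each of the 167 members in the 4 groups (log axis, n = 3 libraries a group) against the rank by mean over all 12 libraries. Dashed and dotted lines mark the mean of 400 FPKM and the minimum of 100 FPKM of the rule; levels fall steeply over the first ranks, and a few members have group means far from the others of the same rank.

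The leading members were largely shared between libraries. Of the 10 members with the highest overall means, 9 or 10 were among the 10 highest members of each library. Together, 7 members were among the 10 highest in every library and 12 in any of them. The 10 highest by overall mean held 22.1% ± 0.467 of the members' summed FPKM in Ad-GFP, 23.4% ± 0.0639 in Ad-Cklf1, 23.9% ± 0.363 with the scrambled hairpin and 24.0% ± 0.802 with knockdown (SD, n = 3 each).

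Membership turned on the mean threshold more than on the minimum. ENSRNOT00000009665 and ENSRNOT00000079456 lay just inside the mean, at 404 and 411 FPKM, and ENSRNOT00000026920 and ENSRNOT00000046108 just outside, at 397 and 393 FPKM. The lowest single value of any member was 222 FPKM, in ENSRNOT00000049000, followed by 246 FPKM in ENSRNOT00000068413, so no member was near the minimum of 100 FPKM. Only 5 transcripts reached the mean and missed the minimum, and all 5 changed by large factors between libraries. ENSRNOT00000009448, ENSRNOT00000000256 and ENSRNOT00000077972 were at 4.88 to 18.6 FPKM in the libraries without TNF and at 819 to 2262 FPKM in those with TNF. ENSRNOT00000017127 was at 2911 to 3523 FPKM in Ad-Cklf1 and at 0.966 to 6.92 FPKM elsewhere. ENSRNOT00000091327 ranged from 22.4 to 123430 FPKM, also between replicates of 1 group. The minimum of the rule thus removed the transcripts with the largest changes, and how rarely members change by large amounts is partly set by the rule.

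The members' summed level stayed nearly constant while their share of the total did not. Their summed FPKM was 185843 ± 2324 in Ad-GFP, 187664 ± 1832 in Ad-Cklf1, 181147 ± 1637 with the scrambled hairpin and 180319 ± 3985 with knockdown (SD, n = 3 each). As a share of all FPKM this was 36.7%, 37.2% and 36.9% in Ad-GFP and 36.2%, 37.4% and 36.0% in Ad-Cklf1. It was 34.1%, 35.7% and 29.5% in scramble and 36.1%, 29.4% and 35.9% in knockdown. Scramble replicate 3 and knockdown replicate 2 were the low libraries, and their groups overlapped each other. No p is given for these sums, since they are scores over chosen members.

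In those libraries ENSRNOT00000091327 alone made up 18.8% and 19.7% of all FPKM. That transcript, which is no member, was at 22.4, 410 and 1839 FPKM in Ad-GFP and at 16197, 1318 and 15552 FPKM in Ad-Cklf1. Its values were 34955, 13426 and 114345 FPKM in scramble and 447, 123430 and 1823 FPKM in knockdown. Without it the total was 490419 to 505054 FPKM in the 12 libraries, against 492242 to 627410 FPKM with it. The members' share of that reduced total was 37.0% ± 0.291 in Ad-GFP, 37.3% ± 0.228 in Ad-Cklf1, 36.5% ± 0.168 with the scrambled hairpin and 36.3% ± 0.316 with knockdown (SD, n = 3 each). The members' own sum was 179283 FPKM in scramble replicate 3 and 184539 FPKM in knockdown replicate 2, within the range of the other libraries, so the low shares followed from the total. On the reduced total, each library with TNF was below each one without it, by a narrow gap (at most 36.65%, in scramble replicate 2, against at least 36.68%, in Ad-GFP replicate 1). On the full total they overlapped, and ENSRNOT00000091327 was left out after seeing the data. The 4 other transcripts that missed the minimum stayed in the reduced total. Of all FPKM, they made up 0.758% with the scrambled hairpin, 0.782% with knockdown and 0.622% with Cklf1 overexpression, but 0.00732% with Ad-GFP. That gap is smaller than the 0.689% or more that these 4 held in each scramble library, against at most 0.00811% in Ad-GFP. Counted as members, they would put scramble replicate 2 above Ad-GFP replicate 1. The separation is thus set by the rule.

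**Figure D2:**
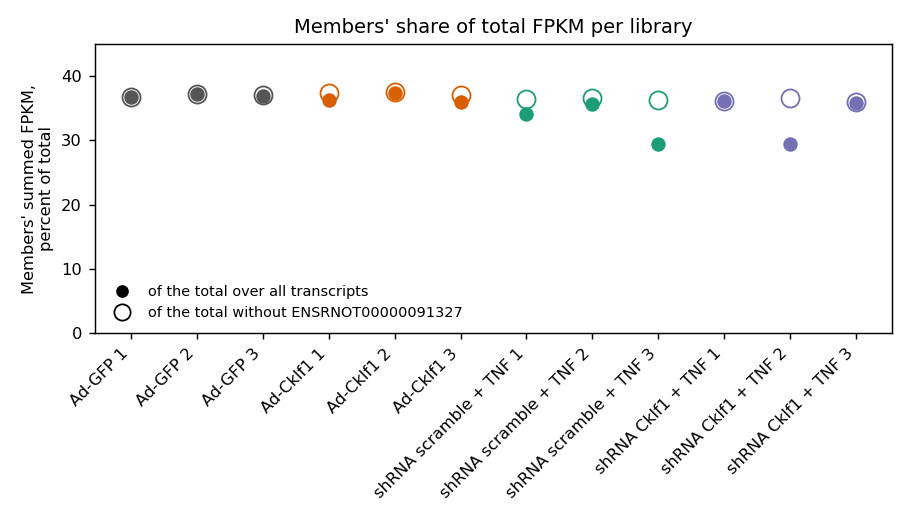
Summed FPKM of the 167 members as a percent of total FPKM in each library, with the total over all transcripts (filled) or without ENSRNOT00000091327 (open). Scramble replicate 3 and knockdown replicate 2 drop to 29.5% and 29.4% with all transcripts in the total, and all 12 libraries lie between 36.0% and 37.5% without that transcript.

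Transcripts just below the members showed the same drop. The 401 transcripts with at least 100 FPKM in every library and a mean under 400 FPKM held 16.3% ± 0.0577 of all FPKM in Ad-GFP, 16.1% ± 0.277 in Ad-Cklf1, 14.7% ± 1.34 with the scrambled hairpin and 14.8% ± 1.77 with knockdown (SD, n = 3 each).

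Most members varied little over the whole series. The ratio of the highest to the lowest of the 12 libraries had a median of 1.38, was under 1.25 for 41 members and under 1.5 for 107, and was 2 or more for 21 and 3 or more for 6. ENSRNOT00000025225, ranked 45, had the smallest ratio, 1.08. It was at 1156, 1161 and 1192 FPKM in Ad-GFP, 1149, 1160 and 1138 in Ad-Cklf1, 1206, 1184 and 1129 with the scrambled hairpin and 1183, 1214 and 1164 with knockdown. ENSRNOT00000013461, ranked 93, had the next smallest ratio, 1.11, with values between 694 and 769 FPKM. Its knockdown libraries (705, 698 and 700 FPKM) were nevertheless all below those of scramble (769, 762 and 749 FPKM), with a limma adjusted p of 0.0535.

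At the other end, ENSRNOT00000083468, ranked 23, had the largest ratio, 4.25, and ENSRNOT00000049000, ranked 121, followed with 4.10. Both were high in the libraries without TNF and low in those with it. ENSRNOT00000083468 was at 2710, 2596 and 2562 FPKM in Ad-GFP and 3044, 3089 and 2898 FPKM in Ad-Cklf1, against 950, 894 and 891 FPKM in scramble and 886, 903 and 727 FPKM in knockdown. ENSRNOT00000049000 was at 746, 761 and 738 FPKM in Ad-GFP and 910, 898 and 841 FPKM in Ad-Cklf1, against 323, 322 and 311 FPKM in scramble and 280.5, 300.3 and 222 FPKM in knockdown.

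Replicates of a group differed least in Ad-Cklf1. The members' median coefficient of variation was 3.71% in Ad-GFP, 1.98% in Ad-Cklf1, 3.54% with the scrambled hairpin and 5.39% with knockdown. The 401 transcripts of the next lower level had 3.53%, 2.05%, 3.06% and 4.85% in the same order, lower than the members in every group but Ad-Cklf1. Transcripts with a mean of 1 to 10 FPKM had 10.9%, 10.9%, 12.4% and 13.7%. Knockdown replicate 3 stood apart: 19 of the 167 members, 8 above and 11 below, were off by more than 1.25 times from the mean of the other knockdown libraries, against 0 to 10 members in every other library. ENSRNOT00000046201, ranked 73 and singled out after its values were seen, had the largest coefficient of variation in Ad-GFP and in knockdown. It was at 509, 1404 and 969 FPKM in Ad-GFP and at 452, 1032 and 1424 FPKM in knockdown, which are 46.6% and 50.4%.

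The comparison of Ad-Cklf1 with Ad-GFP addresses the response to raised Cklf1 without TNF. Most members moved by small amounts. The test, limma on log2(FPKM + 1) over all 13698 transcripts that averaged 1 FPKM or more, called a difference at a Benjamini-Hochberg adjusted p below 0.05. Of the 167 members, 11 rose and 20 fell, which is 18.6% of them, beside 18.8% of all tested transcripts (7.8% higher and 11.1% lower). The members' share called was thus near this background. Of the 13698 transcripts, 6834 averaged 1 to 10 FPKM, and such transcripts varied more between replicates. With a filter at a mean of 10 FPKM, 20 members rose and 25 fell, beside 1077 and 1127 of 6864 tested. The members' share was then below the background. Shares of all tested below rest on the 13698 unless the filter is named. The median size of the members' log2 fold change was 0.11, a fold of 1.08, beside 0.15 for all tested transcripts, and the signed medians were 0.01 and -5.89e-05. In 97 members (58.1%) the 3 libraries of one group did not overlap those of the other, beside 42.4% of all tested, and this held for all 31 called members.

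ENSRNOT00000044608, ranked 78, fell the most of the members. It was at 1279, 1480 and 1506 FPKM in Ad-GFP and at 666, 669 and 664 FPKM in Ad-Cklf1, with a log2 fold change of -1.09 (limma adjusted p = 9.31e-06, SE 0.059). Every Ad-Cklf1 library was thus below every Ad-GFP library. It was lower still in the other groups, at 487 ± 6.58 FPKM with the scrambled hairpin and 580 ± 10.4 FPKM with knockdown (SD, n = 3 each). Scramble against Ad-GFP gave a log2 fold change of -1.54 (limma adjusted p = 2.02e-08, SE 0.059). Ad-GFP was thus its only high group, and whether raised Cklf1 or the Ad-GFP virus sets the groups apart was not tested. ENSRNOT00000082300, ranked 110, was at 1090, 1131 and 1309 FPKM and then at 591, 574 and 575 FPKM, a log2 fold change of -1.02 (limma adjusted p = 0.000265, SE 0.099). Ad-GFP was its highest group as well, beside 356 ± 12.1 FPKM with the scrambled hairpin and 406 ± 57.1 FPKM with knockdown (SD, n = 3 each). At 0.5 log2 units or more 1 member rose and 3 fell, beside 0.788% and 3.23% of all tested transcripts. ENSRNOT00000044608 and ENSRNOT00000082300 were the only members called with a fall of at least 1 log2 unit, which 0.467% of all tested transcripts showed, and 0 members rose by as much, beside 0.0584% of all tested.

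Rises were smaller. ENSRNOT00000074226, ranked 161, was at 262, 276 and 260.5 FPKM in Ad-GFP and at 408, 414 and 367 FPKM in Ad-Cklf1, with a log2 fold change of 0.57 (limma adjusted p = 0.00554, SE 0.10). ENSRNOT00000014346, ranked 134, was at 475, 447 and 446 FPKM and at 629.9, 632.5 and 616 FPKM, a log2 fold change of 0.46 (limma adjusted p = 0.00026, SE 0.044). In both, the groups did not overlap. ENSRNOT00000042459, of rank 4, rose by a ratio of means of 1.14 (log2 fold change 0.19, limma adjusted p = 0.0136, SE 0.043), a call lost on leaving out Ad-GFP replicate 2 or 3 (limma adjusted p = 0.0514 and 0.055). ENSRNOT00000009665, the member nearest to the mean threshold, rose from 379 ± 14.2 to 450 ± 7.61 FPKM (SD, n = 3 each; log2 fold change 0.24, limma adjusted p = 0.0145, SE 0.055), which did not pass without Ad-GFP replicate 3 or Ad-Cklf1 replicate 2 (limma adjusted p = 0.0523 and 0.0562).

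In summed level, the 11 members that rose gained 2219 FPKM and the 20 that fell lost 4166 FPKM, beside a gain of 3769 FPKM over the 136 members that were not called. Called members were chosen in the same libraries, so the direction of their sums was set by that choice. The counts rested on single libraries: leaving out Ad-GFP replicate 2 gave 6 rises and 11 falls, and leaving out Ad-GFP replicate 3 gave 4 and 10. All tested transcripts then had 578 rises and 997 falls, and 490 and 874. Dropping replicate 1 of Ad-Cklf1 gave 6 and 10, replicate 2 gave 5 and 9, and replicate 3 gave 8 and 12. All tested transcripts then had 555 and 1000, 473 and 911, and 660 and 1096, so their calls fell as well. Without knockdown replicate 3, which is not compared but adds to the shared spread, 24 rose, beside 1328 of all tested. Scaling each library to its total, which ENSRNOT00000091327 enters, left 2 rises and 2 falls, and scaling to the sum of non-members 0 and 2. With that transcript left out of the total there were 14 and 21. All tested transcripts had 71 rises and 452 falls, 18 and 216, and 1045 and 1494 in the same order.

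**Figure D3:**
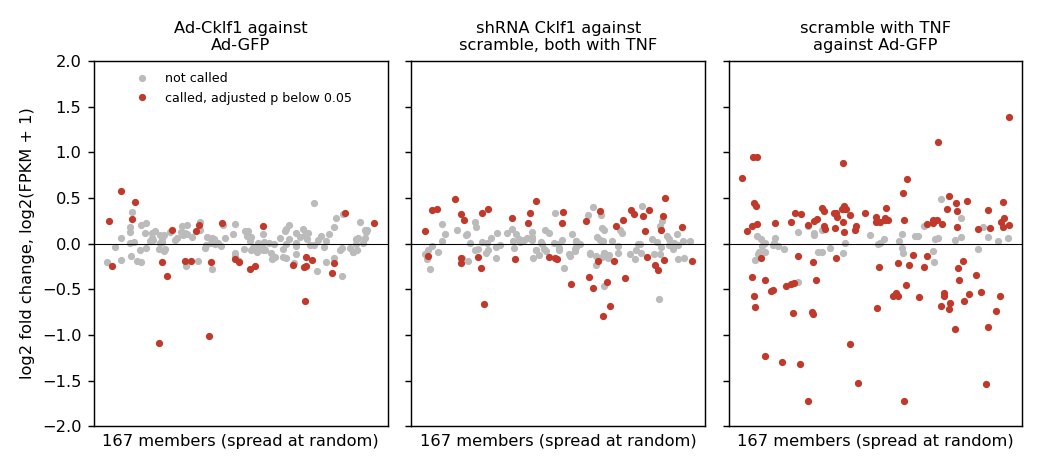
Log2 fold changes of the 167 members on the log2(FPKM + 1) scale in 3 comparisons; points are members, red where limma's adjusted p was below 0.05, and the horizontal position is random. The spread is widest in the comparison of scramble with TNF against Ad-GFP, where 118 members were called, against 31 and 51 in the others.

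The comparison of knockdown with scramble addresses the response to lowered Cklf1 under TNF. Here 27 members rose and 24 fell, which is 30.5% of them, beside 29.6% of all tested transcripts (16% higher and 13.6% lower; limma, adjusted p below 0.05). Again the share called was near this background in the fit of all 12 libraries. That fit shares 1 spread over the 4 groups, and knockdown replicates varied most. A fit of only the 6 libraries compared called 15 rises and 8 falls, beside 1373 and 1072 of 13698 tested. There the members' share lay below the background. With the filter at a mean of 10 FPKM, 32 members rose and 30 fell, beside 1580 and 1321 of 6864 tested. The members' share was then below the background. The median size of the log2 fold change was 0.13 for members and 0.17 for all tested transcripts, with signed medians of 0.00 and 0.01. The groups did not overlap in 78 members (46.7%), beside 42.4% of all tested, and in all 51 called members. Changes of at least 0.5 log2 units were called in 1 member that rose and 3 that fell, beside 4.77% and 3.14% of all tested. No called change of a member reached 1 log2 unit, beside 1.1% of all tested that rose and 0.27% that fell by as much.

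ENSRNOT00000070912, ranked 25, fell the most among members called without overlap. It was at 2383, 2170 and 2436 FPKM in scramble, against 1277, 1296 and 1460 FPKM in knockdown, a log2 fold change of -0.79 (limma adjusted p = 3.85e-05, SE 0.065). Knockdown was its lowest group, below the 1622 ± 63.2 FPKM of Ad-GFP as well (SD, n = 3). ENSRNOT00000056022, ranked 139, was at 675, 651 and 681 FPKM in scramble, against 442, 422 and 388 FPKM in knockdown, a log2 fold change of -0.68 (limma adjusted p = 2.89e-05, SE 0.052). The knockdown level of this member was close to the 405 ± 7.15 FPKM of Ad-GFP (SD, n = 3). ENSRNOT00000079456, near the mean threshold, fell from 512 ± 19.6 to 324 ± 4.76 FPKM (SD, n = 3 each), a log2 fold change of -0.66 (limma adjusted p = 9.24e-06, SE 0.040).

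ENSRNOT00000080216, ranked 50, rose the most. It was at 656, 652 and 687 FPKM in scramble, against 912, 971 and 941 FPKM in knockdown, with a log2 fold change of 0.50 (limma adjusted p = 0.000135, SE 0.053). The knockdown values stayed below every Ad-GFP library, the lowest of which was 1213 FPKM. ENSRNOT00000044711, ranked 49, was at 792, 726 and 800.2 FPKM in scramble, against 931, 1054 and 1283 FPKM in knockdown (log2 difference 0.48, limma adjusted p = 0.00484, SE 0.097), but a fit of only those 6 libraries gave a limma adjusted p of 0.0501. Its highest knockdown value came from replicate 3, the library that stood apart. The abundant ENSRNOT00000042459 rose by 0.37 log2 units (limma adjusted p = 0.000223, SE 0.043), from 3228 ± 75.4 to 4182 ± 90.6 FPKM (SD, n = 3 each).

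The 27 members that rose gained 5149 FPKM in sum and the 24 that fell lost 4208 FPKM, in directions set by their choice in the same libraries. The falls numbered 13 without scramble replicate 1 and 13 without scramble replicate 2, and without knockdown replicate 3 there were 26 rises and 18 falls. Among all tested transcripts these fits called 1407 falls, 1401 falls, and 1968 rises with 1631 falls, fewer than in the main fit as well. Scaling to the total gave 8 rises and 5 falls, scaling to the sum of non-members 1 and 3, and scaling to the total without ENSRNOT00000091327 gave 26 and 29. All tested transcripts had 953 rises and 488 falls, 560 and 211, and 2162 and 1881 in the same order.

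The overexpression and knockdown comparisons share no library, but they share 1 estimate of the spread, so their calls are not independent. Both called 14 members, 8.38% of the 167 beside 9.4% of all tested transcripts, which is 45.2% of the 31 called with overexpression and 27.5% of the 51 called with knockdown. Of these, 8 fell with overexpression and rose with knockdown and 5 did the reverse, 4.79% and 2.99% of the members beside 5.22% and 3.37% of all tested transcripts. The log2 fold changes of the 8 ran from -1.09 to -0.15 with overexpression and from 0.14 to 0.47 with knockdown, and those of the 5 from 0.20 to 0.57 and from -0.79 to -0.29. Together, 13 members had opposite calls, beside 8.59% of all tested. The remaining one, ENSRNOT00000042459, rose in both, beside 0.803% of all tested that were called in the same direction. The members' shares thus lay near those of all tested transcripts.

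The difference between the effects, overexpression minus knockdown, was tested directly. The manipulations are opposite by design, so a member that moves in opposite directions in them also gives a large difference. It was higher for 27 members and lower for 27, 32.3% in all, beside 35.3% of all tested transcripts (limma, adjusted p below 0.05; 16% and 19.3% by direction). Differences of at least 0.5 log2 units were called higher in 9 members and lower in 7, beside 7.4% and 11.1% of all tested, and those of at least 1 log2 unit in 1 and 2, beside 1.22% and 3.7%. The arms also differed in TNF, so this compares the manipulations in those settings. ENSRNOT00000070912 had a difference of 1.13 log2 units (limma adjusted p = 2.7e-05, SE 0.093), and ENSRNOT00000014346 one of 0.90 (limma adjusted p = 1.3e-05, SE 0.062). In the latter, Ad-Cklf1 at 626 ± 8.74 FPKM was the highest group and knockdown at 382 ± 5.41 FPKM the lowest (SD, n = 3 each). ENSRNOT00000044608 had the lowest difference of the members, -1.34 (limma adjusted p = 7.56e-06, SE 0.084), and it came mostly from its fall with overexpression. Higher differences numbered 17 when replicate 1 of Ad-Cklf1 was dropped and 15 when its replicate 2 was, beside 1850 and 1809 of all tested. Scaling to the total left 7 higher and 9 lower, and scaling to the sum of non-members 3 and 5. All tested transcripts then had 631 higher and 1567 lower, and 240 and 974.

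**Figure D4:**
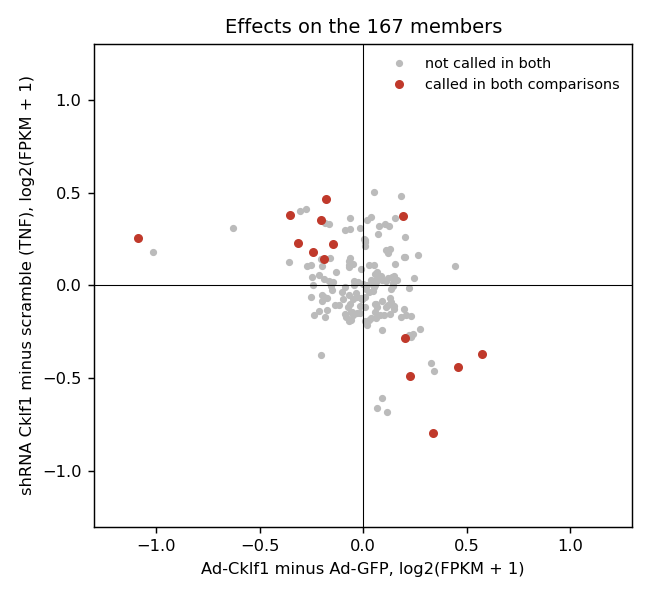
Log2 fold change of each of the 167 members with knockdown (vertical) against that with overexpression (horizontal), both on the log2(FPKM + 1) scale. The 14 members called in both comparisons are red; 13 lie in the quadrants of opposite sign and 1 rose in both.

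The scramble group with TNF was set against Ad-GFP to describe the backgrounds of both arms. TNF and the virus insert differ between these groups at the same time, as would any batch of an arm, and they cannot be told apart. In bulk samples, fewer cells of a type and less RNA per cell cannot be told apart either. In this comparison 65 members were higher and 53 lower in scramble (limma, adjusted p below 0.05). This is 70.7% of them, beside 59.4% of all tested transcripts (28.8% higher and 30.6% lower). With the filter at a mean of 10 FPKM, 67 members were higher and 54 lower, beside 2249 and 2577 of 6864 tested. The shares were then closer to each other. Sizes of the log2 fold change had a median of 0.25 for members and 0.32 for all tested transcripts, and the signed medians were 0.06 and -0.00384. The groups did not overlap in 127 members (76.0%), beside 65.7% of all tested, and in 117 of the 118 called.

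The lower members had the larger median change. The 65 higher members had a median fold of 1.21 and went from 59066 ± 126 FPKM in sum to 74736 ± 1013 FPKM (SD, n = 3 each). The 53 lower members had a median fold of 1.46 and went from 60491 ± 563 to 37725 ± 1125 FPKM (SD, n = 3 each). These members were chosen by their calls in the same libraries, so the direction of each sum was set by that choice. Changes of at least 0.5 log2 units were found in 9 higher and 32 lower members, 5.39% and 19.2%, beside 13.3% and 15.7% of all tested transcripts. Changes of at least 1 log2 unit were found in 2 higher and 8 lower members, 1.2% and 4.79%, beside 3.87% and 5.6% of all tested. The minimum of the rule kept out 4 transcripts that were higher in scramble, so the number of large rises is partly set by the rule. With these included, 69 were higher and 53 lower among 172.

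ENSRNOT00000024030, ranked 12, had the largest fall. It was at 3975, 3678 and 3682 FPKM in Ad-GFP and 4206, 4243 and 4054 FPKM in Ad-Cklf1, and at 1210, 1076 and 1160 FPKM in scramble and 1190, 1206 and 1044 FPKM in knockdown. All 6 libraries with TNF were thus far below the 6 without. Its log2 fold change of scramble against Ad-GFP was -1.72 (limma adjusted p = 2.39e-08, SE 0.068), and that of knockdown against scramble was -0.00407 (limma adjusted p = 0.972, SE 0.068). ENSRNOT00000082300 had nearly the same fall, -1.72 (limma adjusted p = 2.96e-07, SE 0.099), to 344, 368 and 356 FPKM in scramble; its Ad-Cklf1 libraries lay between, and its knockdown libraries were at 348, 407 and 462 FPKM. ENSRNOT00000083468 and ENSRNOT00000049000, the members with the widest range, fell by 1.52 and 1.23 on the log2 scale (SE 0.078 and 0.093, limma adjusted p = 1.37e-07 and 2.03e-06).

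ENSRNOT00000068413, ranked 156, had the largest rise. It was at 262, 252 and 246 FPKM in Ad-GFP, 315, 332 and 308 FPKM in Ad-Cklf1, 659.5, 715 and 624.5 FPKM in scramble and 570.2, 563 and 384 FPKM in knockdown. Scramble was above Ad-GFP by 1.39 log2 units (limma adjusted p = 9.19e-06, SE 0.13). Its fall with knockdown, -0.42 (limma adjusted p = 0.0368, SE 0.13), was lost on leaving out any 1 scramble library, and also Ad-GFP replicate 2, Ad-GFP replicate 3, Ad-Cklf1 replicate 1 or Ad-Cklf1 replicate 3 (limma adjusted p between 0.0503 and 0.113). Without knockdown replicate 3 it was -0.23 and still passed, and in a fit of only the 6 libraries compared it did not (limma adjusted p = 0.137). ENSRNOT00000074226 followed at 534, 635 and 564 FPKM in scramble, a rise of 1.11 (limma adjusted p = 8.43e-06, SE 0.10). With knockdown it was at 489.6, 480.2 and 377 FPKM, a log2 fold change of -0.37 (limma adjusted p = 0.0233, SE 0.10) that did not pass without scramble replicate 2 or knockdown replicate 3 (limma adjusted p = 0.0833 and 0.0502), or in a fit of only the 6 libraries compared (limma adjusted p = 0.0957). ENSRNOT00000042459 was lower in scramble than in Ad-GFP by a log2 fold change of -0.74 (limma adjusted p = 3.05e-07, SE 0.043), the only one of the 5 most abundant members with a change beyond 0.5 log2 units in that comparison.

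Across the arms, all 6 libraries with TNF lay above all 6 without in 36 members (21.6%) and below them in 34 (20.4%), beside 14.4% and 14.3% of all tested transcripts. Over the 3 pairwise comparisons 38 members (22.8%) were called in none, 72 in 1, 43 in 2 and 14 (8.38%) in all, beside 32.6%, 35.3%, 23.8% and 8.32% of all tested. Each control group enters a pair of these comparisons, so their calls are not independent. Scaling to the total gave 11 higher and 48 lower members for scramble against Ad-GFP, and scaling to the sum of non-members 7 and 47, where these scalings moved the median log2 fold change of all tested transcripts by -0.11 and -0.18. With ENSRNOT00000091327 left out of the total, 68 were higher and 50 lower. All tested transcripts had 2112 higher and 4167 lower, 1344 and 4056, and 4106 and 4018 in the same order.

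**Figure D5:**
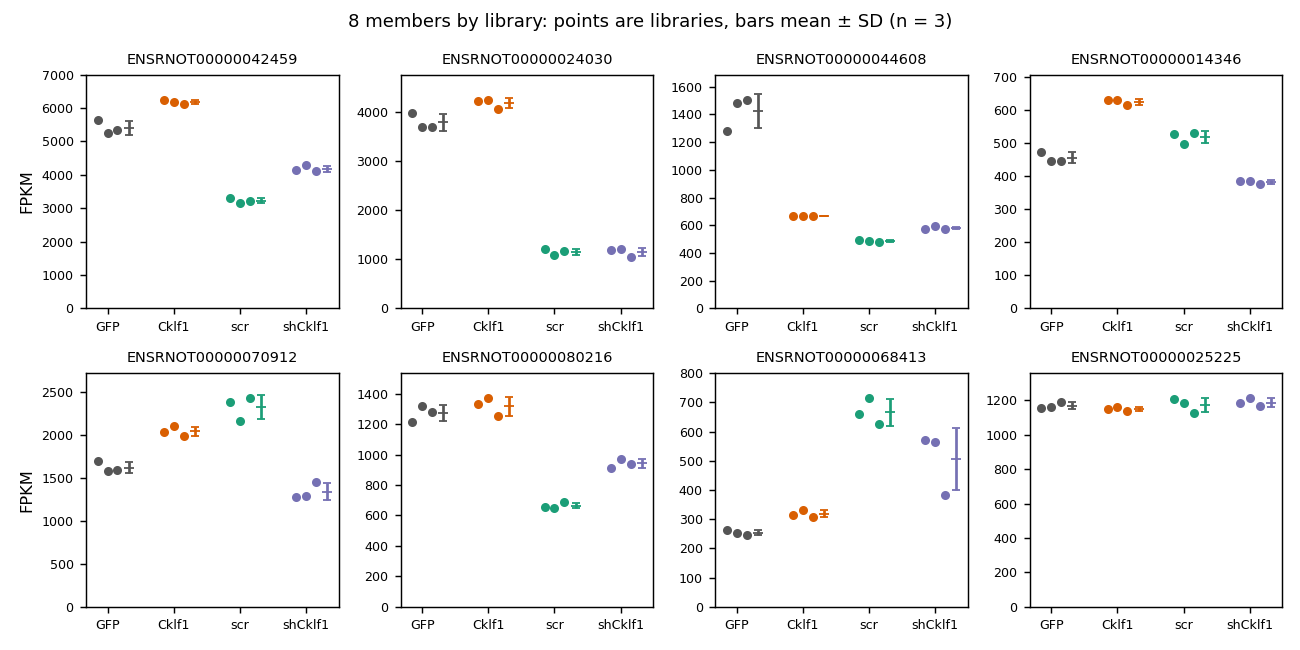
FPKM of 8 named members in each library, with the mean ± SD (n = 3) beside the points of each group: Ad-GFP (GFP), Ad-Cklf1 (Cklf1), scramble with TNF (scr) and knockdown with TNF (shCklf1). ENSRNOT00000024030 falls from 3678 FPKM or more without TNF to 1210 FPKM or less with it, and ENSRNOT00000025225 stays between 1129 and 1214 FPKM in all 12 libraries.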

How the data were processed

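Each deposited file gives 1 FPKM value per Ensembl transcript; the unit was read per the file headers, whose identifier column carries the name that Cufflinks writes, and from the values. The genome build is Rnor 6.0 per the submitters' processing notes. Per the labels' protocols, RNA was DNase-treated, poly(A)-selected, primed with random hexamers and sequenced on Illumina; no strand-marking step is mentioned. For the aligner, quantifier, annotation release and any scaling, nothing is given in the sources used here.

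Groups came from the sample titles. Values were transformed to log2(FPKM + 1) (pseudocount 1), which understates changes of low transcripts, and the 13698 transcripts whose mean was 1 FPKM or more, all 167 members included, were fitted by limma 3.58.1 (R 4.3.3) as 4 group means over 12 libraries, leaving 8 residual degrees of freedom; p-values were Benjamini-Hochberg adjusted over all of them. The test was checked on simulated data that gave each transcript the same spread in all groups, so unequal spread between groups was not checked. Members and lists were chosen with earlier results of these data known. Named were the 5 most abundant members, the 2 largest rises and falls per pairwise comparison among members called without overlap, the 2 smallest and 2 largest ranges, and the transcripts nearest to each threshold. Gene lists and marker checks were not run, because the identifiers carry no names. Alternatives were the pseudocount, filters, scalings, thresholds of the rule, the replicate block and leaving out each library.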

Additional observations from a re-analysis of the deposited data

Results flagged for a closer look

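The effects of overexpression and knockdown differed by the direct test (limma, difference of log2 fold changes, adjusted p below 0.05) for 27 members with a higher and 27 with a lower overexpression effect. Of all tested transcripts, 16% and 19.3% were called so. Members that moved in opposite directions in these opposite manipulations are among them, so a call is no sign of disagreement. Among named members the difference was higher for ENSRNOT00000070912 (1.13 log2 units), ENSRNOT00000074226 (0.94), ENSRNOT00000014346 (0.90), ENSRNOT00000056022 (0.80), ENSRNOT00000068413 (0.74), ENSRNOT00000079456 (0.73), ENSRNOT00000049000 (0.50) and ENSRNOT00000083468 (0.32). It was lower for ENSRNOT00000044608 (-1.34), ENSRNOT00000082300 (-1.19), ENSRNOT00000080216 (-0.45) and ENSRNOT00000042459 (-0.18). Those of ENSRNOT00000083468 and ENSRNOT00000042459 lay near the threshold (limma adjusted p = 0.0435 and 0.0432) and did not pass on leaving out any 1 of 9 and of 10 libraries, respectively.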

How the results depend on the processing

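Counts below are members higher and lower, for overexpression, knockdown, their difference and the control groups in that order. Scaling to a fixed total gave 2 and 2, 8 and 5, 7 and 9, and 11 higher. All 13698 tested transcripts then had 71 and 452, 953 and 488, 631 and 1567, and 2112 higher. Scaling to the summed FPKM of non-members gave 0 and 2, 1 and 3, 3 and 5, and 7 higher. All tested then had 18 and 216, 560 and 211, 240 and 974, and 1344 higher. Both totals hold ENSRNOT00000091327, and with it left out (chosen after seeing the data) every count stayed within 1.5 times. Requiring 0.5 log2 units left 1 and 3, 1 and 3, 9 and 7, and 9 and 32. Members at a mean of 600 FPKM gave 3 and 13, 17 and 12, 14 and 15, and 31 lower; at 300 FPKM, 21 rises for overexpression and 42 higher differences. For overexpression, rises were 20 with a filter at 10 FPKM, 18 with a trend and robust prior and 19 in a fit of 6 libraries, which for knockdown gave 15 and 8. All tested transcripts had 1077, 1171 and 1059 rises in these, and 1373 and 1072 for knockdown in the fit of 6 libraries. The cause was not tested. Leaving out each library gave 4 to 24 and 9 to 23, 21 to 33 and 13 to 25, 15 to 29 and 19 to 31, and 56 to 70 and 45 to 55. Among all tested transcripts, overexpression then had 473 to 1328 and 874 to 1817, and knockdown 1697 to 2235 and 1401 to 1891. Their difference had 1809 to 2131 and 2210 to 2598, and the control groups 3550 to 4098 and 3769 to 4330. The replicate block gave 12 and 18, 28 and 23, 30 and 23, and 67 and 53. All tested then had 1053 and 1477, 2199 and 1831, 2212 and 2665, and 3957 and 4200. The numbers were not taken as pairing: deviations from the group means of libraries sharing a number had correlations of -0.0483 to 0.0859, and for 8 of 12 libraries the highest was with its own number, a hint from the data only. The block ended 1 call among the named members, the difference for ENSRNOT00000042459 (limma adjusted p = 0.0544).

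The members' share of all FPKM, in the order Ad-GFP, Ad-Cklf1, scramble and knockdown, was 40.7%, 40.3%, 36.3% and 37.0% with members at 300 FPKM and 31.7%, 31.4%, 28.4% and 29.1% at 600 FPKM. Without the per-library minimum it was 37.1%, 39.3%, 43.2% and 41.3%. ENSRNOT00000091327 then counts as a member, and it alone held on average 0.150%, 2.13%, 9.33% and 6.71%. Without ENSRNOT00000091327 in the total it was 37.3% in Ad-Cklf1 and 36.5% in scramble. Leaving out each library gave 36.8% to 37.0%, 36.1% to 36.8%, 31.8% to 34.9% and 32.6% to 36.0%.

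Of 912 values of named members under alternatives, 837 kept direction and call, 73 lost the call and 2 reversed. Scaled to non-members, ENSRNOT00000004956 and ENSRNOT00000014346 went to -0.051 and -0.021 for the control groups. FPKM records no depth, which limits what can be said of precision.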
